A study of Mus musculus with 12 samples.

Results

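Genes whose listed transcript has a coding sequence of at least 9000 bases are described here in mouse embryonic stem cells that were depleted of the ribosomal protein RACK1. Such a coding sequence was present in 142 of the 18765 genes of the 5-day comparison. Of these, 41 had a mean level below 0 and 9 more belonged to gene families that were set aside by symbol, namely Lama1, Lama3, Lama5, Kmt2a, Kmt2c, Kmt2d, Usp34, Smg1 and Mga. The other 92 genes are the members, chosen by coding length and by a measured value, the mean log2 CPM (read counts scaled to the size of the library) over the 6 libraries of the 5-day comparison. All 92 were also measured in the 10-day comparison.

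All cells were of the E14-mESC line with the genotype RACK1-AID/RPS26-Tir1 Ribo-Tweezer, in which RACK1 carries an auxin-inducible degron and the ribosomal protein RPS26 is fused to the auxin receptor Tir1. Poly(A) RNA was sequenced from 4 groups of 3 libraries. These were cells after 5 days in IAA (the auxin indole-3-acetic acid), cells after 5 days in the solvent DMSO, cells 10 days after withdrawal that followed 5 days of IAA, and the DMSO control of that second time. Treated and control cells thus share both engineered alleles, no group without them was analysed here, and all groups come from 1 cell line. The labels number the replicates without saying whether they are separate cultures, so p-values speak only for the spread of these libraries, and that spread may be technical.

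Proteins of this size include molecular motors of cilia, muscle filaments, adhesion molecules with long extracellular chains, endocytic receptors, ubiquitin ligases, lipid transporters and kinases that watch over DNA. A ribosome takes longer to translate a longer coding sequence, and a giant mRNA also takes longer to transcribe and splice. RACK1 sits on the small ribosomal subunit and takes part in the signals that arise when ribosomes stall or collide. Only RNA was measured here, so nothing below speaks of translation.

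Both deposited files are the authors' tables of 1 comparison each, with no values of single libraries, so values per sample cannot be shown. Each deposited fold is the log2 fold in the authors' deposited table, each SE is the standard error that its fold and t statistic imply, and each adjusted p is the Benjamini-Hochberg value of limma over all genes of that table. The level of a group is the deposited mean log2 CPM plus or minus 0.5 of the fold. A level in CPM is not divided by length, so a long transcript reaches the level minimum with fewer molecules than a short one. Positive folds were read as higher in IAA cells, which the headers do not state. The difference in mean level between both tables rose with the 5-day fold at a slope of 0.53 ± 0.01 (SE) over 4772 genes that had passed at 5 days, where this reading gives 0.5 and the reverse gives -0.5. That check takes the DMSO controls of both times as alike, and over the 33 members that passed its slope was 1.12 ± 0.14.

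By the lowest values of each table, the geometric mean library size was 23.3M reads in the 5-day comparison and 21.2M in the 10-day comparison. The pluripotency genes that define this cell type lay at 8.33 to 10.6 log2 CPM in IAA cells and at 8.76 to 10.8 in DMSO cells at 5 days, and 6 of these 8 genes fell. Of 6 markers of feeder fibroblasts measured at each time none passed, and the summed level of the 5 measured at both was 3.29 log2 CPM in IAA cells and 3.30 in DMSO cells at 5 days. At 10 days that sum was 3.58 log2 CPM in cells withdrawn from IAA and 3.05 in DMSO cells, and its part in the results at that time was not tested. The degron acts on RACK1 protein, and Rack1 RNA had a deposited 5-day fold of -0.17 ± 0.04 (adjusted p = 0.0051). In bulk RNA, fewer cells with a transcript and less of it per cell cannot be told apart.

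After 5 days in IAA, 33 of the 92 genes passed at an adjusted p under 0.05, of which 19 were higher and 14 lower in IAA cells. That is 35.9% of the members, against 25.5% of all genes and 33.7% of the 12821 genes at a mean level of 0 or more. Higher calls made up 20.7% of the members, against 13.5% of all genes and 16.8% of genes at such a level. Lower calls made up 15.2%, against 12.1% and 16.9%. The level in this same comparison chose the members, so nothing is read from these shares, and 5 members (among them Zfhx4, Apob, Dnah6 and Zan) reached the minimum only through the group in which they were higher. With smooth trends of the fold on transcript length and GC content removed over all genes, the split was 14 higher and 24 lower. Of the 33 genes, Macf1, Aspm, Adgrv1 and Mki67 no longer passed with the trend on mean level removed, and Speg, Spen, Syne2, Hspg2 and Adgrv1 no longer passed with the length and GC trends removed.

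The median deposited fold of the 92 genes at 5 days was -0.04, with the middle 50% between -0.21 and 0.16, and 41 genes were above 0. Over all genes at a level of 0 or more the median was -0.01. With the length and GC trends removed the members' median was -0.13, with 27 of 92 above 0. A fold smaller than 0.2 in size was found in 47 of the 92 genes. At the other end, 11 members (12.0%) had a fold of 1 or more in size, against 4.45% of all genes at a level of 0 or more. Of these 11, 9 were higher in IAA cells, among them Zfhx4, Fras1, Dchs1, Trank1, Reln, Trio, Fat1 and Lrp2, and 2 were lower, Zan and Dnah6. As some of them, such as Zfhx4, Zan and Dnah6, reached the level minimum only through the group in which they were higher, nothing is read from this share.

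**Figure D1:**
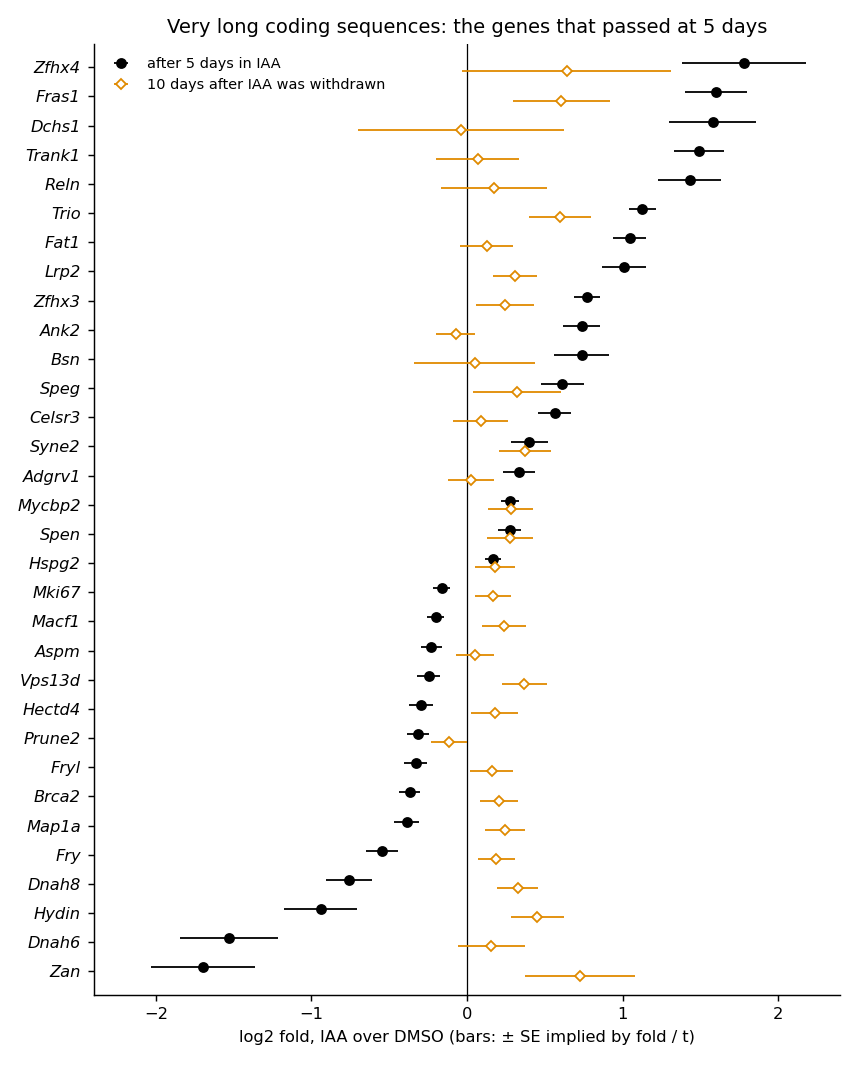
Log2 folds of IAA-treated over DMSO cells for 32 genes with very long coding sequences that passed at 5 days, after 5 days in IAA (filled circles) and 10 days after IAA was withdrawn (open diamonds), with bars of ± 1 SE implied by the authors' deposited table. The 5-day folds run from 1.78 for Zfhx4 to -1.70 for Zan, while at 10 days 16 of the 18 plotted genes that rose and 13 of the 14 that fell lie above 0.

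Promoters are shown for genes with large rises and falls at 5 days, a choice made after the values had been seen. Zfhx4, Fras1 and Dchs1 rose more than the 2 risers shown. Those shown are the 2 largest rises and 2 largest falls among 58 members whose RefSeq entry begins within 100 bases of the listed transcript. Each runs 5′ to 3′ on the gene's strand, over 250 bases before the start and 50 after it, from the RefSeq table for GRCm38.p6. Capitals mark the dinucleotide CG, which reads the same on both strands. The windows are chr9:111311489-111311788 on the plus strand for Trank1, chr5:22344656-22344955 on the minus strand for Reln, chr5:137477015-137477314 on the minus strand for Zan and chr6:73221582-73221881 on the minus strand for Dnah6.
Trank1: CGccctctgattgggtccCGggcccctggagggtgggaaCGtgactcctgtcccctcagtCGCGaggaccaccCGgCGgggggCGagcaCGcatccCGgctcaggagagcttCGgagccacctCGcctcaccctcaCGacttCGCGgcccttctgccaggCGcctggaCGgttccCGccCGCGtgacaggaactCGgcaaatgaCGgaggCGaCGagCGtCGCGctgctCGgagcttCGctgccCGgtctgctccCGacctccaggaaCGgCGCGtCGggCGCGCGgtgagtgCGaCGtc
Reln: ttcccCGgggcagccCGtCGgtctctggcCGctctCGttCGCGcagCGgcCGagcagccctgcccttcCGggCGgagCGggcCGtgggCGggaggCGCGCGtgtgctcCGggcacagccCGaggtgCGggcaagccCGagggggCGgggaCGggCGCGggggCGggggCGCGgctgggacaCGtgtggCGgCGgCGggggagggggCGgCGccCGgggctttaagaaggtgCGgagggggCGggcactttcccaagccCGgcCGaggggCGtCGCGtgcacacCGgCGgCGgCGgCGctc
Zan: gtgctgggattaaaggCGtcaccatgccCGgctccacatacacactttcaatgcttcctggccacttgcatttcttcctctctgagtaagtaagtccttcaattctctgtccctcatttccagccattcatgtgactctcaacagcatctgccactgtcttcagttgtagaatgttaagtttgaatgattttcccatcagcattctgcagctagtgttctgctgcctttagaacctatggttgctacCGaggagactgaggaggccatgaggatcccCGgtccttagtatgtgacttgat
Dnah6: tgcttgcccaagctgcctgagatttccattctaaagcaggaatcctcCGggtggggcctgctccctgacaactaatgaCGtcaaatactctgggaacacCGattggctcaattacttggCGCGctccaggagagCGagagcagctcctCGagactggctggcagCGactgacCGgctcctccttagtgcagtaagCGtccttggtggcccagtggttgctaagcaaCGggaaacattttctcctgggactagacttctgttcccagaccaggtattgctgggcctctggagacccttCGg
The windows of the risers Trank1 and Reln held 40 and 47 CG dinucleotides, and those of Zan and Dnah6 held 4 and 12. Over the whole list the contrast was smaller. The median was 28 per window in 11 members that rose, 20 in 12 that fell and 25 in 35 that did not pass, with ranges of 5 to 54, 3 to 32 and 2 to 63 that overlap. Over 1 window for each of 9925 other genes at a level of 0 or more the median was 21, and 99.5% of those windows held at least 1. Unlike the members' windows, these were not matched to the start of the listed transcript, so both medians come from unlike choices of promoter.

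Matrix and adhesion genes were among the largest rises. Of 20 listed matrix and basement membrane proteins 5 were members, and Lama1, Lama3 and Lama5 had been set aside by symbol. All 5 members lay above 0 and 4 of them rose. The 9 long genes set aside by symbol, these Lama genes among them, had a median deposited 5-day fold of 0.004, from -0.97 to 0.39. Of those 9, 1 was higher and 2 were lower, so the count of rises covers only part of the listed matrix genes. The role lists were drawn up with earlier results of these data known. Among genes at a level of 0 or more 16.8% were higher and 16.9% lower, and these shares stand beside each role list below. Fras1 encodes a basement membrane protein that joins skin to the tissue beneath it, with 74 exons on chromosome 5 (96373955 to 96784728, GRCm38). Its level was 3.37 log2 CPM in IAA cells and 1.77 in DMSO cells, a deposited fold of 1.60 ± 0.20 (adjusted p = 8.95e-05). Reln encodes reelin, a secreted protein that guides the placing of neurons, and stood at 2.44 log2 CPM in IAA cells and 1.01 in DMSO cells (deposited fold 1.43 ± 0.20, adjusted p = 0.000228). Adgrv1, a very large adhesion receptor of sensory hair cells that the list also held, had a deposited fold of 0.33 ± 0.10 (adjusted p = 0.031). It no longer passed with the trend on mean level removed, nor with the length and GC trends removed. Hspg2 encodes perlecan, a heparan sulfate proteoglycan, and was at 8.98 log2 CPM in IAA cells and 8.81 in DMSO cells. Its small deposited fold of 0.17 ± 0.05 (adjusted p = 0.0265) changed sign to -0.04 with the length and GC trends removed. Frem2, a partner of Fras1 in the basement membrane, had a deposited fold of 0.04 ± 0.11 (adjusted p = 0.837).

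The cadherin superfamily members had folds of both signs. Of 6, 3 rose and none fell, with a median deposited fold of 0.15. Fat1, a giant protocadherin that shapes cell contacts and actin, stood at 8.60 log2 CPM in IAA cells and 7.55 in DMSO cells, and its deposited fold was 1.04 ± 0.10 (adjusted p = 1.58e-05). Dchs1, a binding partner of Fat cadherins in planar polarity, stood at 1.90 log2 CPM in IAA cells and 0.33 in DMSO cells (deposited fold 1.58 ± 0.28, adjusted p = 0.00117). Celsr3, a cadherin receptor that steers axons, also rose by a deposited fold of 0.56 ± 0.11 (adjusted p = 0.00172). The remaining members had folds below 0 that did not pass, which were -0.69 ± 0.32 for Cdh23, a component of hair cell tip links, -0.37 ± 0.20 for Fat2 and -0.26 ± 0.11 for Celsr1, a planar polarity cadherin, in the authors' deposited table. The folds of these members thus ran from -0.69 to 1.58, but none of those below 0 passed. Their relatives Fat4, Fat3 and Dchs2 lay below the level minimum, with deposited folds of 2.80 ± 0.68, 1.66 ± 0.42 and 1.80 ± 0.85. Of these, Fat4 and Fat3 passed (adjusted p = 0.00833 and 0.0106) and Dchs2 did not (adjusted p = 0.144).

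Of the 2 endocytic receptors of the LDL receptor family 1 rose. Lrp2, or megalin, which takes up many ligands in early embryo and kidney, stood at 7.20 log2 CPM in IAA cells and 6.19 in DMSO cells, and rose by a deposited fold of 1.01 ± 0.14 (adjusted p = 0.000216). Lrp1 differed far less than its relative, with a deposited fold of 0.03 ± 0.19 (adjusted p = 0.926).

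Among chromatin and transcription regulators 3 of 6 members rose and 1 fell. Zfhx4 and Zfhx3 encode related transcription factors with several homeodomains and many zinc fingers. Zfhx4 had the largest deposited fold of all 92 genes, 1.78 ± 0.40 (adjusted p = 0.00518), from a low level of 1.04 log2 CPM in IAA cells and -0.74 in DMSO cells. Zfhx3 was better measured, at 4.99 log2 CPM in IAA cells and 4.22 in DMSO cells (deposited fold 0.77 ± 0.08, adjusted p = 2.77e-05). Spen, a repressor that binds the X-inactivating RNA Xist, rose by 0.27 ± 0.07 (adjusted p = 0.0144) in the authors' deposited table. Mki67, the proliferation antigen Ki-67 that coats mitotic chromosomes, had a deposited fold of -0.16 ± 0.05 (adjusted p = 0.0391), which no longer passed with the trend on mean level removed (adjusted p = 0.268). The chromatin remodelling ATPases Ep400 and Srcap lay within 0.1 of 0, at -0.08 ± 0.05 and 0.08 ± 0.05 in the authors' deposited table. Srcap shares its locus with the member Gm42715, since both lie on the plus strand of chromosome 7 from 127513018 to 127561219 and from 127519584 to 127567054 in GENCODE M21. How reads were divided between them is not known, and Gm42715 had a deposited fold of 0.03 ± 0.11.

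Motor proteins leaned the other way. Of 19 listed dyneins and kinesins 9 were members, and these 9 lay below 0 at 5 days, with a median deposited fold of -0.34, yet only Dnah6 and Dnah8 passed. The axonemal dynein heavy chains drive the beating of cilia and sperm tails. Dnah6 stood at -0.47 log2 CPM in IAA cells and 1.06 in DMSO cells, and its deposited fold was -1.53 ± 0.31 (adjusted p = 0.00295). Dnah8, a dynein known from sperm tails, stood at 5.68 log2 CPM in IAA cells and 6.44 in DMSO cells (deposited fold -0.76 ± 0.15, adjusted p = 0.00225). Dnah10, Dnah1, Dnah17 and Dnah2 had deposited folds of -0.43, -0.34, -0.32 and -0.26 with SEs between 0.19 and 0.31, and none passed.

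Hydin, which builds the central pair of motile cilia, is kept in the list of centrosome, spindle and Golgi scaffolds. It stood at 1.29 log2 CPM in IAA cells and 2.23 in DMSO cells (deposited fold -0.94 ± 0.23, adjusted p = 0.00947). Grouped after the values had been seen, the 6 axonemal dyneins and Hydin all lay below 0 at 5 days, from -1.53 to -0.26 with a median of -0.43, and 3 of the 7 fell. The level minimum bears on this, since Dnah6 passed it only through DMSO cells, and of 9 further axonemal dyneins below it 6 lay above 0 and 3 below. Those 6 were Dnah7a, Dnah7b, Dnah14, Dnah5, Dnah3 and Dnah11, with deposited folds of 1.89, 1.28, 1.10, 0.64, 0.40 and 0.23 and SEs from 0.33 to 0.82, and none of the 9 passed. Of the 3 members of the motor list outside the axoneme none passed. Dync1h1, the heavy chain of cytoplasmic dynein, stood at 8.62 log2 CPM in IAA cells and 8.71 in DMSO cells with a deposited fold of -0.09 ± 0.05 (adjusted p = 0.275), which was -0.17 (adjusted p = 0.0323) with the length and GC trends removed and 0.0096 (adjusted p = 0.916) with the trend on mean level removed. Dync2h1, the dynein of transport within cilia, and the kinesin Stard9 had deposited folds of -0.16 ± 0.12 and -0.40 ± 0.16.

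The largest fall of all was in Zan, which encodes zonadhesin, a sperm membrane protein that binds the egg coat. It stood at -0.78 log2 CPM in IAA cells and 0.92 in DMSO cells, and its deposited fold was -1.70 ± 0.33 (adjusted p = 0.00233). Like Dnah6 it was below 0 log2 CPM in IAA cells and above 0 in DMSO cells. Its mean level of 0.07 log2 CPM put it just inside the level minimum, beside Apob at 0.09 and Zfhx4 at 0.15. Just outside lay Dnah11 at -0.14, with a deposited fold of 0.23, and Hmcn1 at -0.22, with a deposited fold of 0.997 (adjusted p = 0.0325).

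**Figure D2:**
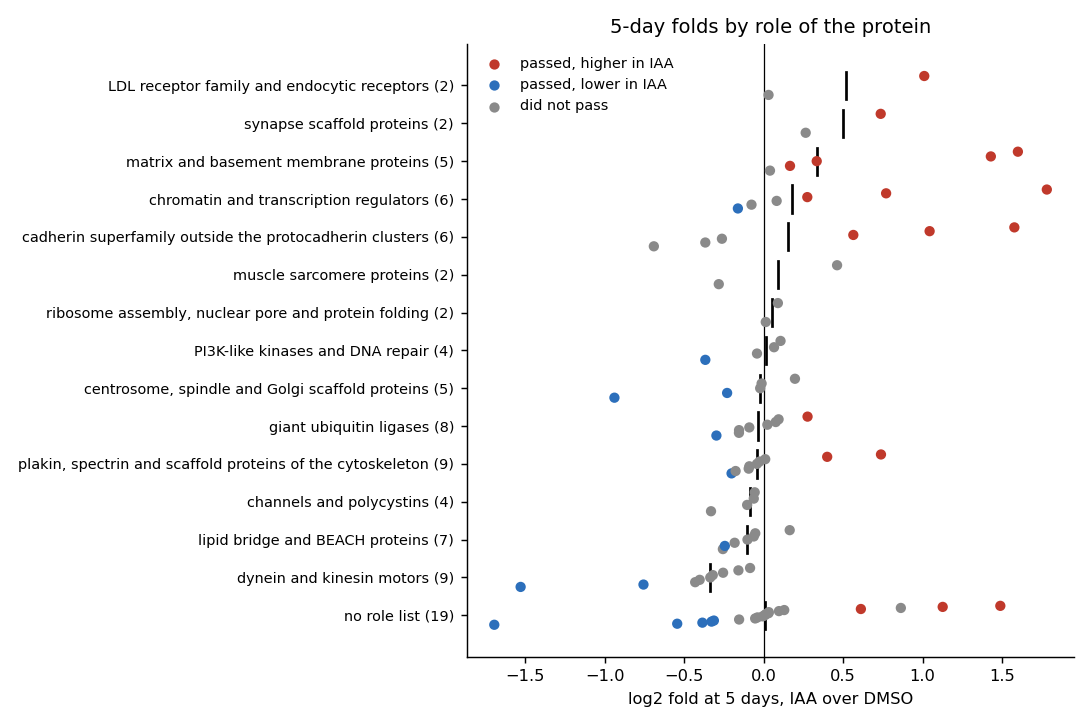
Log2 folds at 5 days of IAA over DMSO cells for 90 of the 92 genes, grouped by the role of the protein, 1 point per gene (red for passed and higher in IAA, blue for passed and lower, grey for not passed), with a black bar at the median of each role and the number of plotted genes in brackets. All 5 matrix genes lie above 0 and all 9 dynein and kinesin genes plotted below it.

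Other scaffolds of the cytoskeleton were mostly level, with 2 of 9 higher and 1 lower in the plakin and spectrin list. Ank2, an ankyrin that ties membrane proteins to spectrin, rose by a deposited fold of 0.74 ± 0.12 (adjusted p = 0.000611), at 4.39 log2 CPM in IAA cells and 3.65 in DMSO cells. Syne2, a nesprin that links the nucleus to the cytoskeleton, rose by 0.40 ± 0.12 (adjusted p = 0.0243) in the authors' deposited table. Its relative Syne1, with 26400 coding bases the second-longest member, had a deposited fold of -0.09 ± 0.20 (adjusted p = 0.785). Macf1, which crosslinks actin and microtubules, had a deposited fold of -0.20 ± 0.06 (adjusted p = 0.0174), and its close relative Dst one of -0.03 ± 0.06 (adjusted p = 0.806). Plec, Dmd, Utrn and Eppk1 lay between -0.18 and 0.01 in the authors' deposited table and did not pass.

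Genes of muscle and synapse lay below 4 log2 CPM in both groups at 5 days. Ttn encodes titin, the spring of the sarcomere, and has the longest coding sequence, 100404 bases in 312 exons. It stood at 3.60 log2 CPM in IAA cells and 3.89 in DMSO cells with a deposited fold of -0.28 ± 0.12 (adjusted p = 0.103), which was -0.38 (adjusted p = 0.0341) with the length and GC trends removed and -0.32 (adjusted p = 0.0719) with the trend on mean level removed. Neb, the ruler of thin filaments, had a deposited fold of 0.46 ± 0.26 (adjusted p = 0.221). Bsn and Pclo organise the presynaptic release site, and of them Bsn rose by a deposited fold of 0.74 ± 0.18 (adjusted p = 0.00787) while Pclo had 0.26 ± 0.34 (adjusted p = 0.616).

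The giant enzymes and housekeeping machines stayed near 0. All 8 listed giant ubiquitin ligases were members, with a median deposited fold of -0.03. Mycbp2, a ligase known from axon guidance, rose by 0.28 ± 0.06 (adjusted p = 0.00358), and Hectd4 fell, with a fold of -0.30 ± 0.08 (adjusted p = 0.0118), both in the authors' deposited table. Huwe1, which marks p53 and MYC family proteins among others, drew the most reads of all members, on a scale not divided by length, with 9.34 log2 CPM in IAA cells and 9.26 in DMSO cells (deposited fold 0.08 ± 0.06, adjusted p = 0.385). Its fold was 0.19 (adjusted p = 0.0336) with the trend on mean level removed and -0.0019 (adjusted p = 0.985) with the length and GC trends removed. Ubr4, a recognition ligase for N-terminal degrons, had a deposited fold of -0.16 ± 0.06 (adjusted p = 0.0615), which was -0.17 (adjusted p = 0.044) with the median of all genes set to 0, -0.26 (adjusted p = 0.00523) with the length and GC trends removed and -0.059 (adjusted p = 0.504) with the trend on mean level removed. Herc1, Herc2, Birc6 and Rnf213 lay between -0.16 and 0.09 in the authors' deposited table and did not pass.

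Among kinases and repair proteins only Brca2, which serves the repair of DNA breaks by recombination, passed. It stood at 6.67 log2 CPM in IAA cells and 7.04 in DMSO cells, a deposited fold of -0.37 ± 0.07 (adjusted p = 0.00136). Fry, its neighbour upstream on the plus strand of chromosome 5, had a deposited fold of -0.54 ± 0.10 (adjusted p = 0.00165). The kinases Atm and Prkdc and the coactivator subunit Trrap lay between -0.04 and 0.11 in the authors' deposited table. Mdn1, an ATPase needed to build the large ribosomal subunit, and Ranbp2, a nucleoporin, had deposited folds of 0.01 ± 0.07 and 0.09 ± 0.08.

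The lipid bridge and BEACH proteins include the Vps13 family, which carries lipids between membranes at contact sites. Vps13d alone of 7 passed, with a deposited fold of -0.24 ± 0.07 (adjusted p = 0.0271). Lyst, Vps13c, Vps13a, Vps13b, Wdfy3 and 4932438A13Rik lay between -0.26 and 0.16 in the authors' deposited table. The channels and polycystins Ryr1, Ryr2, Ryr3 and Pkd1 all lay below 0, from -0.33 to -0.06, and none passed. In the centrosome and Golgi list Aspm, a spindle pole protein, fell, with a deposited fold of -0.23 ± 0.07 (adjusted p = 0.0231), while Akap9, Golgb1 and Alms1 lay between -0.02 and 0.20 and did not pass.

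Of the 20 members in no role list 3 rose and 5 fell. Trio, which switches on small GTPases that shape the actin cytoskeleton, had the smallest adjusted p of all members, 2.59e-06, with 5.32 log2 CPM in IAA cells, 4.20 in DMSO cells and a deposited fold of 1.13 ± 0.09. Trank1, a protein of ankyrin and tetratricopeptide repeats, stood at 3.14 log2 CPM in IAA cells and 1.65 in DMSO cells (deposited fold 1.49 ± 0.16, adjusted p = 2.65e-05). Speg, a muscle kinase, rose by 0.61 ± 0.14 (adjusted p = 0.00539) in the authors' deposited table. Falls were in Zan, Fry, Fryl (-0.33 ± 0.07), Prune2 (-0.31 ± 0.07) and Map1a (-0.39 ± 0.08), a protein that binds microtubules, by the authors' deposited table. Fry and Fryl are the mouse relatives of furry, a fly protein of cell shape, and both fell. The 12 that did not pass included Apob, Cep350, Cplane1, Gm42715, Htt, Rev3l, Dmxl1, Unc13b, Dmxl2, Bod1l and Myo15b. Apart from Apob, the carrier protein of lipoproteins (deposited fold 0.86 ± 0.33, adjusted p = 0.0736), they lay between -0.15 and 0.13.

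The threshold on coding length cuts through a continuous range. Just inside it were Trank1 with 9000 bases, Fryl with 9024, Dmxl1 with 9042 and Map1a with 9045, with deposited folds of 1.49, -0.33, 0.01 and -0.39. Just outside were Cenpf with 8994 bases, Chd7 with 8961, Kalrn with 8895 and Ash1l with 8877, with deposited folds of -0.02, 0.51, -0.16 and 0.15. Among members, 47 with 9000 to under 12000 coding bases had a median 5-day fold of 0.01 with 11 higher and 7 lower. The 45 with 12000 or more had a median of -0.09 with 8 higher and 7 lower.

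Folds of 1 or more in size at 5 days were most frequent among members of low level, but not confined to them. They were found in 6 of 16 members at 0 to 2 log2 CPM, 2 of 14 at 2 to 4 and 1 of 35 at 4 to 6. At 6 or more there were 2 of 27, Fat1 and Lrp2, at mean levels of 8.08 and 6.70 log2 CPM. In the other genes of these classes the shares were 14.7%, 5.92%, 1.46% and 0.48%. In the lowest class, members such as Zfhx4, Dnah6 and Zan reached the level minimum only through the group in which they were higher. A large fold there is thus tied to the choice of members, and nothing is read from that share. The median level was 3.60 log2 CPM among members that rose, 5.56 among those that fell and 5.32 among those that did not pass. Across the 92 genes the rank correlation (Spearman) of the level with the size of the 5-day fold was -0.51, over points that share 6 libraries and in which rarer transcripts have larger errors. That level is also the value that chose the members. Of the 27 members at 6 log2 CPM or more, 23 had a fold under 0.3 in size. Between 0 and 2 log2 CPM, 4 of 16 members rose and 3 fell, and of the 2098 other genes of that level 19.1% rose and 6.43% fell. Between 2 and 4 log2 CPM, 6 of 14 members rose and none fell, and of the 2906 other genes of that level 20.4% rose and 11.4% fell. Between 4 and 6 log2 CPM, 4 of 35 members rose and 6 fell, and of the 4392 other genes 17.0% rose and 15.8% fell. At 6 log2 CPM or more, 5 of 27 rose and 5 fell, while 11.9% of the 3333 other genes rose and 29.8% fell. Of the 41 genes that were long enough but below the level minimum, 6 rose (14.6%, against 13.5% of all genes) and none fell (against 12.1%). All genes include the 12821 at a level of 0 or more, of which 16.8% were higher and 16.9% lower. The shares of all genes are therefore not those of genes of like level, and nothing is read from them.

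At 10 days after IAA was withdrawn no member passed limma's adjusted p of 0.05, and neither did any other gene, so that 0% of the 18712 genes were called, 0% higher and 0% lower. The smallest adjusted p of a member was 0.901. At an unadjusted p under 0.05 there were 11 members (12.0%), all higher in the cells withdrawn from IAA, against 4.3% of all genes, of which 2.42% were higher and 1.89% lower. These 11 were Trio, Srcap, Hydin, Vps13d, Dnah8, Eppk1, Pkd1, Fat2, Syne2, Lrp2 and Ttn. Gm42715, which shares the locus of Srcap, had a deposited 10-day fold of 0.005 ± 0.17, and how reads were divided between them is not known. Trio had the smallest p, 0.00917, at 4.30 log2 CPM in cells withdrawn from IAA and 3.70 in DMSO cells, a deposited fold of 0.59 ± 0.20.

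The list as a whole lay to one side at 10 days. The median deposited fold was 0.20, with the middle 50% between 0.12 and 0.28, and 84 of the 92 genes lay above 0. Over all genes at a level of 0 or more the median was -0.01. The shift was narrow, since 72 members lay between 0 and 0.4 with a median SE of 0.15, and the genes share the same 6 libraries. The medians were alike whatever had happened at 5 days. The genes that rose at 5 days had a median 10-day fold of 0.24 and those that fell one of 0.20, and the genes that had not passed also had 0.20. The medians also differed little by level, at 0.19, 0.24, 0.18 and 0.21 in the classes of 0 to 2, 2 to 4, 4 to 6 and 6 or more log2 CPM at 5 days, against 0.06, 0.02, -0.01 and -0.04 in the other genes of those classes. All 27 members of the highest class lay above 0.

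Every role list leaned the same way except the synapse pair, whose median was -0.00. The 8 ubiquitin ligases and 7 lipid bridge and BEACH proteins all lay above 0, with medians of 0.21 and 0.24. The 6 axonemal dyneins and Hydin, all below 0 at 5 days, had a median of 0.26 at 10 days with 6 of 7 above 0. The members below 0 at 10 days were Apob, Prune2, Ank2, Pclo, Dchs1, Dync2h1, Ryr3 and Dnah17, from -0.37 to -0.00. The 9 long genes set aside by symbol had a median 10-day fold of 0.29 with 8 above 0.

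The 10-day fold followed the coding length over all genes at a level of 0 or more, and measures of RNA quality per library were not used here. Among genes at a level of 0 or more, the median was -0.07 below 1000 coding bases, -0.01 from 1000 to under 2000, 0.02 from there to under 3000, 0.09 from there to under 6000 and 0.14 from there to under 9000, and 0.20 in the members. The share of genes above 0 in the same classes was 31.7%, 46.3%, 57.0%, 75.6%, 88.6% and 91.3%. The 124 genes with at least 9000 bases in all but under 3000 in the coding sequence had a median of 0.09, with 73.4% above 0. That lay below the members and above the classes under 3000 coding bases. Total length was not matched between these genes and the members. With smooth trends on total length and GC content removed over all genes, the members' median was 0.01, with 52 of 92 above 0. At 5 days the class medians were -0.05, 0.01, 0.00, 0.03 and 0.07, and -0.04 in the members. In the class of 6000 to under 9000 bases 61 of 229 genes (26.6%) were higher and 15 (6.55%) lower at 5 days, against 16.8% and 16.9% of all genes at a level of 0 or more.

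**Figure D3:**
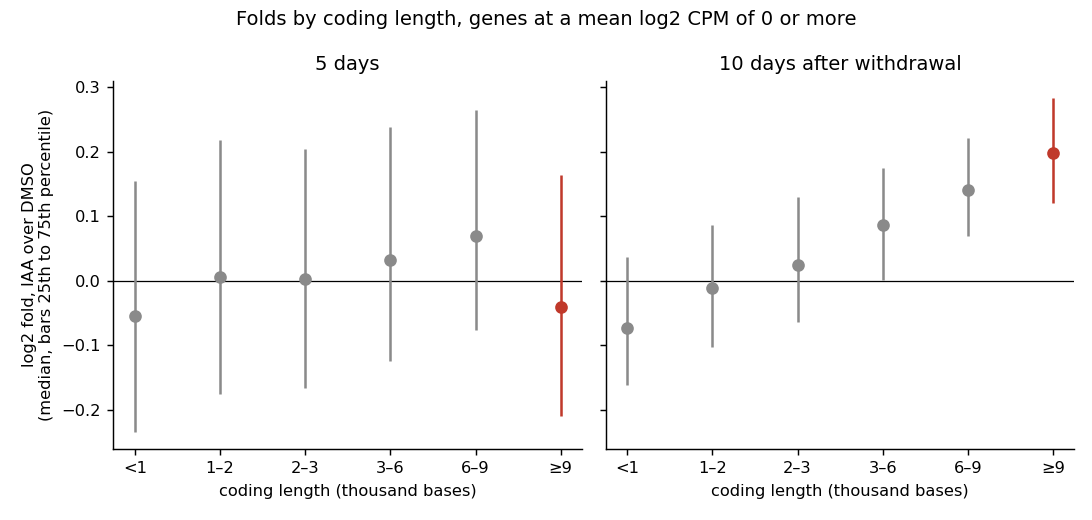
Median log2 fold of IAA-treated over DMSO cells in classes of coding length, for genes at a mean log2 CPM of 0 or more, at 5 days and 10 days after withdrawal, with bars over the middle 50% of genes. The 10-day medians climb from -0.07 in the shortest class to 0.20 in the members, while the 5-day medians stay between -0.05 and 0.07.

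The DMSO controls of both times also differed by length. The level of DMSO cells in the 10-day table minus that in the 5-day table had a median of 0.32 over the members, with 61 of 92 above 0, against -0.07, 0.01, 0.07, 0.09 and 0.05 in the shorter classes. Both tables were normalized separately, so this difference mixes time, libraries and normalization, and its part in the 10-day folds was not tested. Members that rose at 5 days had a median DMSO difference of -0.67 and those that fell one of 0.43. Dnah8 stood at 6.44 log2 CPM in DMSO cells of the 5-day table and at 7.45 in those of the 10-day table, and Dchs1 at 0.33 and -1.70.

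**Figure D4:**
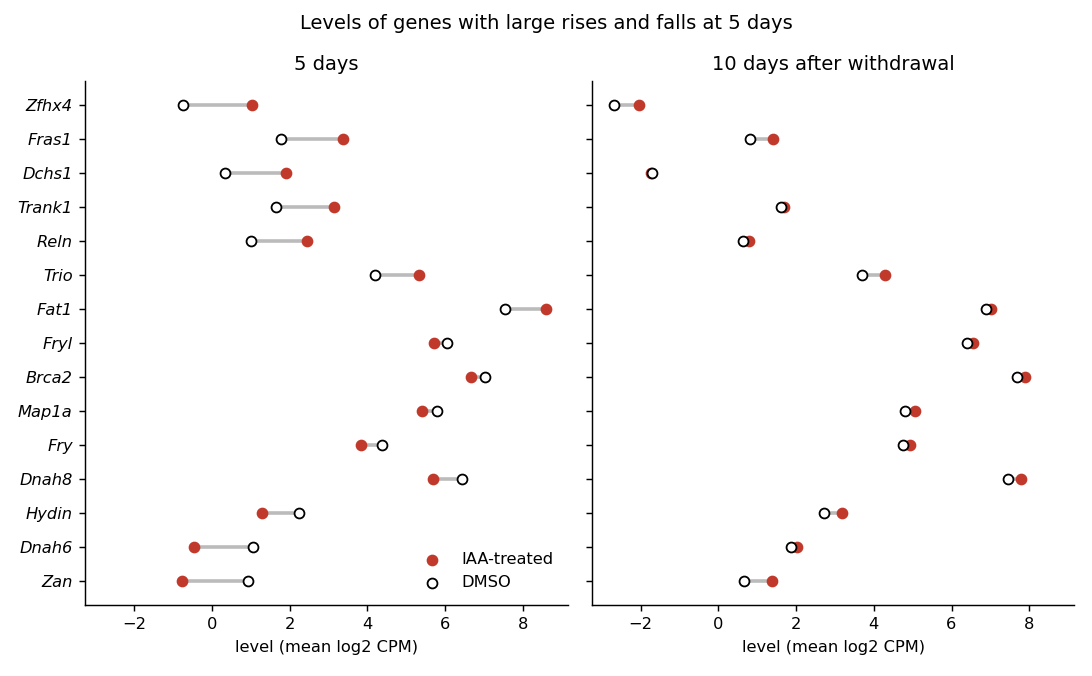
Levels in mean log2 CPM of 7 members with large rises and the 8 with the largest falls at 5 days, in IAA-treated cells (filled red circles) and DMSO cells (open circles), after 5 days in IAA and 10 days after IAA was withdrawn, with a grey line joining both groups of a gene. At 5 days the groups of Zan lie at -0.78 and 0.92 log2 CPM in IAA and DMSO cells, and at 10 days at 1.39 and 0.66.

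The folds of both times were compared by a z test of their difference, adjusted over 18120 genes. It passed for 18 members (19.6%), of which 5 had the higher fold at 5 days and 13 the lower. Among all genes 10.4% passed, 5.57% higher and 4.85% lower, and among genes at a level of 0 or more 13.1% passed, 6.96% higher and 6.19% lower. The members were chosen by a level from the 5-day comparison, which enters this contrast, and the normal reference of the z test makes it lenient. With a t reference 10 members passed, 3 higher and 7 lower, against 4.23% of all genes. With the length and GC trends removed 16 members passed, 8 higher and 8 lower.

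Those higher at 5 days were Trank1, Reln, Fat1, Ank2 and Lrp2. Trank1 had a deposited fold of 1.49 at 5 days and 0.07 ± 0.26 at 10 days, a difference of 1.42 (adjusted p = 0.00019). Fat1 had 1.04 at 5 days and 0.13 ± 0.17 at 10 days, and Ank2 had 0.74 at 5 days and -0.07 ± 0.13 at 10 days, in the authors' deposited tables. The 13 lower at 5 days were Zan, Dnah6, Hydin, Dnah8, Fat2, Ttn, Fry, Map1a, Vps13d, Brca2, Fryl, Hectd4 and Macf1. Zan had a deposited fold of -1.70 at 5 days and 0.72 ± 0.36 at 10 days, a difference of -2.42 (adjusted p = 4.28e-05). Dnah8 had -0.76 at 5 days and 0.33 ± 0.13 at 10 days, a difference of -1.08 (adjusted p = 4.03e-06), in the authors' deposited tables. In 14 of the 18 the folds of both times had opposite signs. As 84 of the 92 members lay above 0 at 10 days, a fall at 5 days mostly brings an opposite sign. No member passed at 10 days, so nothing is read from that count.

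**Figure D5:**
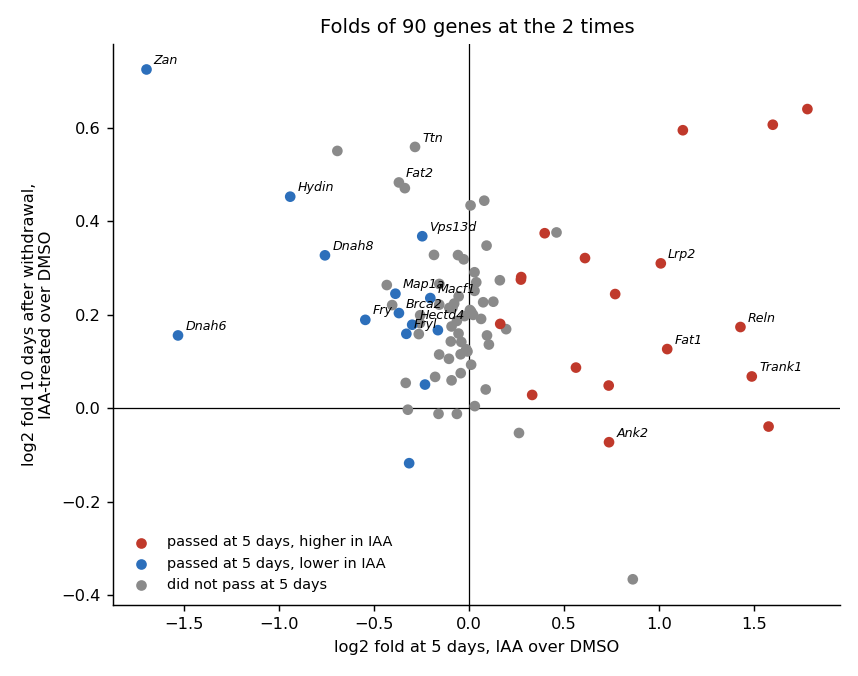
Log2 fold 10 days after IAA was withdrawn against the log2 fold after 5 days in IAA, both over DMSO cells, for 90 of the 92 genes, coloured by the 5-day call, with names for genes whose fold differed between the times. The 5-day axis spans -1.70 to 1.78, and 82 points lie above 0 on the 10-day axis.

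The transcripts of the members differed from those of other genes mainly in the coding part among the features deposited. Their median total length was 13904 bases, against 2974 in the other genes at a level of 0 or more. The untranslated regions were of ordinary size, with medians of 171.5 bases against 173 before the coding sequence and 1001.5 against 999 after it. The median GC fraction of the coding sequence was 0.506 in members and 0.533 in other genes. A median member had 66 exons over 139 kb of genome. Members that rose had a median GC fraction of 0.703 in the 5′ untranslated region and 46 exons, and those that fell 0.575 and 66.5 exons, while those that did not pass had 67 exons. These are descriptions of small groups whose ranges overlap, and no test was made of them.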

How the data were processed

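Poly(A) RNA of 12 libraries in 4 groups of 3 was made into TruSeq libraries after Trizol extraction, per the labels' protocols. The deposited files are 2 tables of the authors' own comparisons, 1 per time, and per the file headers their columns are limma's. The authors deposited a log2 fold and a mean log2 CPM per gene, with the p-value and its BH adjusted value, and the moderated t and log-odds as scores. They also deposited transcript part lengths and the number of upstream AUGs, the GC content as a fraction, and the folding energy of untranslated regions as a score with no named unit. The aligner, counting program, genome build and limma version were not given in the sources used here. Recomputed BH values differed from the deposited ones by at most 4.86e-05.

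The members and role lists were chosen with earlier results of these data known. Members had a coding sequence of at least 9000 bases and a mean level of at least 0 at 5 days, and matched all 92 transcripts in GENCODE M21 on GRCm38. A plan to test counts was replaced by the authors' limma values, since no values of single libraries were used here. The SE is the fold divided by t, and the t statistics had 13.4 and 15.2 degrees of freedom at 5 and 10 days. The folds of both times, which share no library, were compared by a two-sided z test, and a t reference was an alternative. Trends were smoothed by lowess with a span of 0.2. Scripts were tested on simulated data and ran in Python 3.11.15 with pandas 2.3.3, scipy 1.17.1 and statsmodels 0.14.6.

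Genes to name were the 8 largest rises and falls at 5 days among those that passed, up to 8 that passed at 10 days, the 3 longest, the 3 of highest level, the 2 nearest each side of the length threshold, and for each role list the gene of smallest p and that of highest level. Other members were named to account for the list, and 2 members that enter the counts are not reported by name or plotted here.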

Additional observations from a re-analysis of the deposited data

Results flagged for a closer look

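In 18 of the 92 genes the 5-day fold differed from the 10-day fold by a z test adjusted over 18120 genes, and each value here is the 5-day log2 fold minus the 10-day log2 fold, computed from the authors' deposited tables. The difference was 1.42 for Trank1, 1.26 for Reln, 0.92 for Fat1, 0.81 for Ank2 and 0.70 for Lrp2, whose folds were higher after 5 days in IAA. Among genes of the cilium and sperm it was -2.42 for Zan, -1.69 for Dnah6, -1.39 for Hydin and -1.08 for Dnah8. These genes were grouped after the values had been seen. The other axonemal dyneins among the members, Dnah1, Dnah10, Dnah2 and Dnah17, had differences of -0.81, -0.70, -0.45 and -0.32 that did not pass. Zan and Dnah6 reached the level minimum only through the DMSO cells at 5 days, which enter this difference. Of 9 further axonemal dyneins below that minimum, 6 lay above 0 at 5 days and 3 below, and none passed. Fat2, Ttn, Fry, Map1a and Vps13d had differences of -0.85, -0.84, -0.73, -0.63 and -0.61. Brca2, Fryl, Hectd4 and Macf1 had differences of -0.57, -0.49, -0.48 and -0.44. With a t reference 10 of the 18 passed, namely Trank1, Fat1, Ank2, Brca2, Map1a, Fry, Dnah8, Hydin, Dnah6 and Zan. With the trends on transcript length and GC removed, 5 of the 5 higher and 8 of the 13 lower differences still passed.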

How the results depend on the processing

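No paired analysis was possible because the deposited tables hold no values of single libraries, and for the same reason leaving out each replicate and a count model such as DESeq2 were not run. At 5 days the count of 33 was 15 of 45 genes with a coding minimum of 12000, a shorter list by construction, and 23 at an adjusted p under 0.01. It was 34 with the median of all genes set to 0, 30 with the trend on mean level removed and 38 with the length and GC trends removed, of which 33, 29 and 28 were among the 33. The 10-day median of 0.20 was 0.013 with the length and GC trends removed, a setting that shifts the members by 0.20. The count of differences between times, 18, was 10 with a t reference. Hspg2 reversed to -0.041 (adjusted p = 0.603) with the length and GC trends removed. The median of all genes moved by at most 0.03 under any scaling. The 10-day count was 0 under each alternative run. Low levels limit precision, since the SE of members at 5 days ranged from 0.05 to 0.40.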
